A study of Mus musculus with 6 samples.

Results

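The 9 genes of aromatic amino acid breakdown examined here are Tat, Hpd, Hgd and Fah of the tyrosine route, and Tdo2, Kmo, Kynu, Haao and Acmsd of the tryptophan route, which also feeds the synthesis of NAD. They were taken as the probes, control spots left out, whose RefSeq accession belongs to 1 of these genes. This gave 11 probes for the 9 genes, of 56605 probes and 22911 named genes on the array, with 2 probes each for Kmo and Kynu and 1 for each of the other 7 genes. Livers came from young adult male mice fed granulated regular food (control, 3 mice) or 75% regular food with 25% soy bean powder (soy, 3 mice) for 4 weeks, and the RNA of each mouse was read on 1 one-colour Agilent expression array. All mice were from 1 study with no genetic change named, and the strain is not given in the sources used here. A piece of the right lobe was used, so the values sum over all cells of the liver. Of 59305 spots, 37010, 36366 and 38163 were well above background in control and fewer, 31308, 31988 and 32498, in soy. All 11 probes of the 9 genes were well above background on all 6 arrays.

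Tyrosine is broken down mainly in the hepatocyte. Tat removes the amino group of tyrosine, Hpd makes homogentisate, Hgd opens its ring, and a later step by Fah yields fumarate and acetoacetate. Tryptophan enters its route through Tdo2, and the kynurenine formed is hydroxylated by Kmo and split by Kynu. Haao then makes aminocarboxymuconate semialdehyde (ACMS), an unstable intermediate at a branch point. ACMS either closes on itself to quinolinate, from which Qprt starts the synthesis of NAD, or is decarboxylated by Acmsd and passes to oxidation. Tat and Tdo2 are classic targets of glucocorticoids in the liver.

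The stretches before the start sites of Tdo2 and Haao are shown because these genes stand at the entry of the tryptophan route and at the step that makes ACMS. The sequences are RefSeq's on GRCm38.p6, 5′ to 3′ on the strand of the gene, and cover the 250 bases before the start. A promoter was found for 8 of the 9 genes, all but Kynu. Capitals mark matches, on either strand, to 4 short motifs. These are the box of the TATA-binding protein (TATAAA), the core of the site of the liver factor HNF4A (CAAAGT), part of the site of the glucocorticoid receptor (TGTTCT) and the palindrome called the E-box (CACGTG).
The windows are chr17:83846791-83847040 on the minus strand (Haao) and chr3:81975729-81975978 on the minus strand (Tdo2).
Haao: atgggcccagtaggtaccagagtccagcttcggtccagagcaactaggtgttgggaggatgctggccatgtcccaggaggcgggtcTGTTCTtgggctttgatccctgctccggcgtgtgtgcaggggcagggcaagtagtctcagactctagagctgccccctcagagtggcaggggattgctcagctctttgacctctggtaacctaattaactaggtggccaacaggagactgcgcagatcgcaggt
Tdo2: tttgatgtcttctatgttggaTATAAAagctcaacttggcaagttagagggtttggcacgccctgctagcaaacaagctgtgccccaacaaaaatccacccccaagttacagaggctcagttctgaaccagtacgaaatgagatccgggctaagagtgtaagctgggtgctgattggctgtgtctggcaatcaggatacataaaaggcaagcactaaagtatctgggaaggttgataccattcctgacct
The Haao window holds TGTTCT 164 bases before the start, and the Tdo2 window holds TATAAA 229 bases before it. Elsewhere among the 8 genes, Hgd has TATAAA at 139 bases and Kmo has CAAAGT at 136 bases. None of these matches overlap. Of the 32851 promoters in the table, 12.4% hold the first of these motifs, 12.6% the HNF4A motif, 16.1% the glucocorticoid motif and 6.02% the E-box. A match is a match of letters only.

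Acmsd, the enzyme that diverts ACMS away from NAD, was the member that fell in soy livers. Values are normalized signals on the log2 scale, given in the order of the replicates. Acmsd (NM_001033041) was 10.69, 11.21 and 11.02 in control and 9.65, 9.94 and 9.66 in soy livers. Every soy array lay below every control array, with a gap wider than the range within either group. The mean dropped from 10.97 ± 0.27 to 9.75 ± 0.17 (SD, n = 3). Soy minus control was -1.22 with an SE of 0.16 (adjusted p = 0.0326, limma), or 2.34-fold lower in soy. A probe passed here when its adjusted p, by the Benjamini-Hochberg method over all probes, was under 0.05 and its fold change above 1.5 or under 0.66. Before any normalization the median intensities were 1991, 2441 and 1994 in control and 793, 860 and 815.5 in soy livers, likewise without overlap. Such intensities are not scaled between arrays. Their control mean over their soy mean was above 1 for every member probe, from 1.12 for Tdo2 to 2.60 for Acmsd. The arrays came on glass slides, and slide 1 held soy 1 beside the first 2 controls, while slide 3 held control 3 beside soy 3. The difference was also present within each slide that carried both diets (-1.30 within slide 1 and -1.37 within slide 3). The adjusted p was near the threshold: with control 1 left out it was 0.0382, with any 1 of the other 5 arrays left out it rose to between 0.0767 and 0.128, and with slide as a block it was 0.139.

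Acmsd was 1 of 11 member probes and 1 of 9 member genes to pass. Over the whole array 0.350% of probes passed, and 0.532% of genes had a probe that did.

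**Figure D1:**
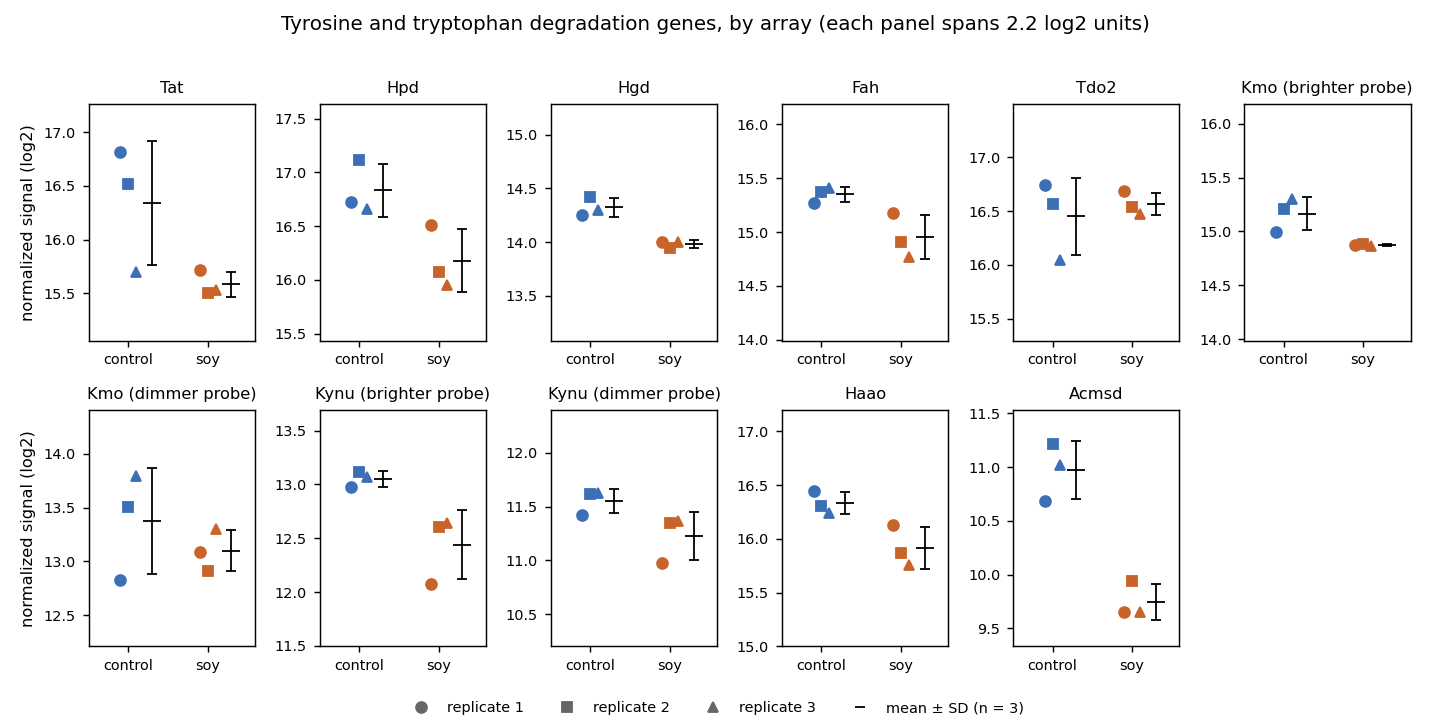
Normalized signal (log2) of each of the 11 probes on the 3 control (blue) and 3 soy (orange) arrays, with marker shape for the replicate number and a bar for mean ± SD (n = 3); every panel spans the same range. Acmsd shows the widest gap between groups, Tdo2 overlaps, and control replicate 3 is the lowest control for Tat and Tdo2.

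The other members lay lower in soy livers by smaller amounts, with Tdo2 as the exception. By the brightest probe of each gene, 8 of 9 were lower in soy and 1 was higher, and 51.2% of all named genes were lower. For 7 of the 9 every soy array lay below every control array (no overlap), against 10.8% of all named genes. The median change of the 9 was -0.41 (log2), against -0.0057 over all named genes. An unadjusted p under 0.05 was reached by 9 of the 11 probes, and by 11.5% of all probes. The adjusted p of the 10 probes that did not pass lay between 0.197 and 0.849. With 3 arrays per group, an exact permutation test of a single gene cannot give a two-sided p below 0.1.

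Of the 4 tyrosine genes, 3 had no overlap and 0 passed. Hpd (NM_008277), which is the target of the drug nitisinone, was 16.73, 17.11 and 16.66 in control livers and 16.51, 16.08 and 15.95 in soy livers, and soy minus control was -0.65 with an SE of 0.18 (adjusted p = 0.220). Hgd (NM_013547), the enzyme missing in alkaptonuria, was 14.25, 14.42 and 14.30 against 14.00, 13.94 and 14.00, and soy minus control was -0.34 with an SE of 0.096 (adjusted p = 0.227). Fah (NM_010176), the enzyme missing in type I tyrosinaemia, was 15.27, 15.38 and 15.41 against 15.18, 14.91 and 14.77, and soy minus control was -0.40 with an SE of 0.13 (adjusted p = 0.285). In all 3 genes the groups were separate, but for Fah soy 1 lay only just under the lowest control. Of the tyrosine genes, Hgd had the narrowest soy group (SD 0.034) and Fah the narrowest control group (SD 0.070).

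Tat, the entry enzyme of the tyrosine route, had the largest difference of the tyrosine genes and also the widest spread. Its probe (NM_146214) was 16.82, 16.51 and 15.70 in control livers and 15.72, 15.50 and 15.53 in soy livers. The groups overlapped, since control 3 lay with the soy arrays and below soy 1. The means were 16.34 ± 0.58 and 15.58 ± 0.12 (SD, n = 3), and soy minus control was -0.76 with an SE of 0.26 (adjusted p = 0.324). Without control 3 the change was -1.08 with an adjusted p of 0.0499, so that this 1 array decides whether Tat passes. Within slide 1 the difference was -0.95, and within slide 3, which holds control 3, it was -0.17.

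Of the tryptophan genes, 4 of 5 had no overlap, and only Acmsd passed. Haao (NM_025325), which makes ACMS, was 16.44, 16.31 and 16.24 in control livers and 16.13, 15.87 and 15.75 in soy livers, and soy minus control was -0.41 with an SE of 0.13 (adjusted p = 0.270). Kynu, which splits kynurenine and hydroxykynurenine, was 12.97, 13.12 and 13.07 against 12.07, 12.60 and 12.64 on its brighter probe (NM_027552), and soy minus control was -0.61 with an SE of 0.16 (adjusted p = 0.197). Soy 1 was the lowest of the Kynu values, and the dimmer probe, on another transcript (NM_001289593), gave a smaller difference with the arrays in nearly the same order, -0.32 (SE 0.14, adjusted p = 0.424). Kmo (NM_133809), the hydroxylase that commits kynurenine to this route, was 14.99, 15.21 and 15.30 against 14.88, 14.88 and 14.87 on its brighter probe, and soy minus control was -0.29 with an SE of 0.11 (adjusted p = 0.370). Its dimmer probe differed by -0.27 (SE 0.24, adjusted p = 0.714) with overlap between the groups, control 1 being the lowest of all 6 arrays.

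Tdo2 (NM_019911), the dioxygenase that opens the ring of tryptophan, was the member that did not lie lower. It was 16.74, 16.56 and 16.05 in control livers and 16.68, 16.54 and 16.47 in soy livers, and soy minus control was 0.12 with an SE of 0.18 (adjusted p = 0.849). The groups overlapped, with control 3 again the lowest. Without control 3 the sign turned (-0.086, adjusted p = 0.868), so that no direction can be given for Tdo2.

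**Figure D2:**
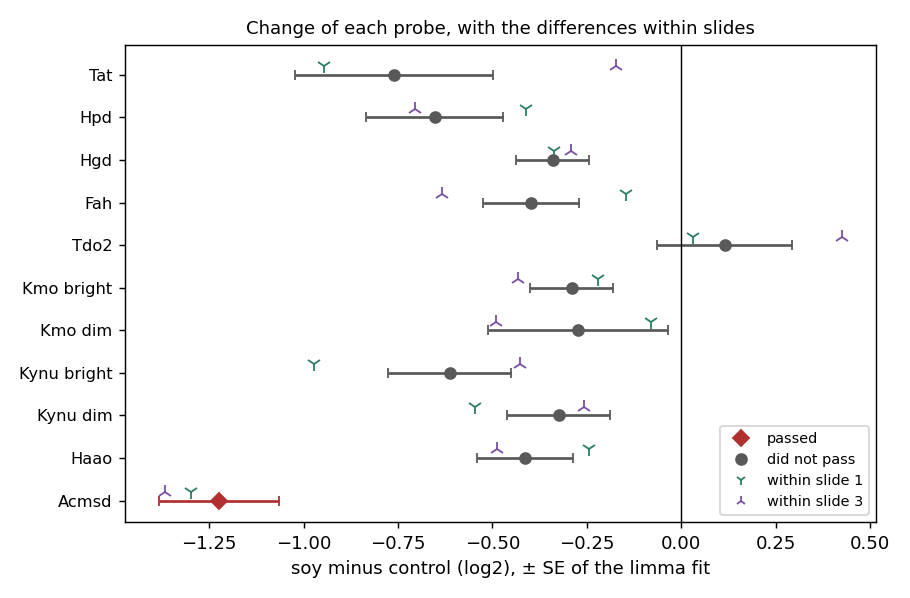
Soy minus control (log2) of each of the 11 probes with the SE of the limma fit (horizontal bars), and the differences within slide 1 and within slide 3 (small marks, no test). Acmsd, at -1.22, is the probe that passed; on both slides the differences of every probe but Tdo2 are below 0.

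The fall of Acmsd was set against the other members within each array, by the difference between its log2 signal and that of each other gene's brightest probe. The offset between 2 probes has no meaning of its own, so only its change between the diets is read. Acmsd was singled out because it had the largest fall of the 9, so that its lower value against each other gene follows from subtraction, and the sizes are a description with no test. They ran from -0.46 (against Tat) to -1.34 (against Tdo2) on the log2 scale, and for 7 of the 8 genes the groups did not overlap. Against Haao, which makes the substrate of Acmsd, the difference was -5.36 ± 0.35 in control and -6.17 ± 0.29 in soy (SD, n = 3), a shift of -0.81. Against Tat the groups overlapped.

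Tat and Tdo2, both known as glucocorticoid targets, were also set against each other, a pair chosen after the values were seen and given with no test. The Tat-to-Tdo2 difference was 0.078, -0.052 and -0.35 in control and -0.96, -1.04 and -0.95 in soy livers. It shifted by -0.88 without overlap, and its spread in soy was small (SD 0.049). Control 3 was the lowest control for both genes.

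Around the 9 genes, 8 lists of pathway genes were examined. They name 81 genes, of which 80 were on the array, 71 of them not members. Of these 71, 2 passed (Got1 and Slc43a1), 18 were lower and 7 higher without overlap, against 10.8% and 9.68% of all named genes. Their median change was -0.03.

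Upstream of tyrosine, 0 of 9 genes of phenylalanine hydroxylation and of its cofactor tetrahydrobiopterin passed, 4 were lower and 1 higher without overlap, and the median was -0.037. The gene closest to the threshold was Gch1 (NM_008102), the first enzyme of cofactor synthesis, which was 15.59, 15.48 and 15.50 in control livers and 14.95, 14.86 and 14.91 in soy livers. Soy minus control was -0.62 with narrow groups (SE 0.092, adjusted p = 0.0519), and Gch1 passed in 4 of the 17 other fits. Dnajc12 (NM_013888), a chaperone partner of the aromatic hydroxylases, was higher in soy by 0.61 (SE 0.26, adjusted p = 0.432), mostly on soy 3 (12.54, against 11.57 and 11.53 on the other soy arrays).

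Among the genes of tyrosine degradation, 1 of 7 passed, and it fell. It was Got1 (NM_010324), the cytosolic aspartate aminotransferase, which can also act on aromatic amino acids. Got1 changed by -2.21 (SE 0.28, adjusted p = 0.0308) and its dimmer probe by -2.23 (adjusted p = 0.0177). Like Tat, it was lowest on control 3 among the controls (15.60, against 16.77 and 16.34). By the brightest probe, the adjusted p was 0.0146 with control 3 left out. With any 1 of the other 5 arrays left out it was 0.0545 to 0.120, and with slide as a block it was 0.0859. The list's median was -0.40, and that of its 3 genes that are not members was -0.062.

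Of the 13 genes from tryptophan to kynurenine with its side branches, Acmsd alone passed, and the median was 0.0052. Among the 8 that are not members, 2 were lower and 2 higher without overlap. The 2 higher ones were Afmid and Aadat. Afmid (NM_027827), which turns formylkynurenine into kynurenine, differed by 0.24 (SE 0.10, adjusted p = 0.437). Aadat (NM_011834), a kynurenine aminotransferase, differed by 0.24 (SE 0.13, adjusted p = 0.538), and by 0.14 without control 3.

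Of 11 genes listed under NAD synthesis, Nadk and Nadk2 among them, 0 passed. By the brightest probe 0 had groups without overlap, in either direction, and the median was 0.032. A dimmer probe of Nadk2, on another transcript (NM_001286253), was higher in soy by 0.53 without overlap (adjusted p = 0.180). Qprt (NM_133686), which takes up quinolinate at the branch opposite to Acmsd, was 14.55, 14.42 and 14.04 in control livers and 13.82, 14.00 and 14.45 in soy livers, and soy minus control was -0.24 with an SE of 0.19 (adjusted p = 0.685). Nampt (NM_021524), which salvages nicotinamide, differed by 0.36 (SE 0.23, adjusted p = 0.600), with soy 1 the highest of the 6 arrays. For each the groups overlapped, and both genes were chosen for their place in the route.

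Of 10 genes on the array that use NAD or nicotinamide, 0 passed, 2 were lower and 3 higher without overlap, and the median was -0.14. The 2 lower ones had wide spread. Slc25a51 (NM_001009949), the mitochondrial NAD carrier, was 14.98, 13.86 and 14.06 in control livers and 13.26, 12.82 and 12.93 in soy livers, and soy minus control was -1.30 with an SE of 0.28 (adjusted p = 0.129). Nt5e (NM_011851), an ectonucleotidase, differed by -1.32 (SE 0.50, adjusted p = 0.372), with control 3 the highest array (10.82, against 8.65 and 9.37). Without control 3 the Nt5e difference was -0.71 (adjusted p = 0.441).

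Of 8 carriers of aromatic amino acids, 1 passed, 4 were lower without overlap and 0 higher, and the median was -0.15. The 4 include Slc6a19, a sodium-coupled neutral amino acid carrier whose probe was well above background on 0 of the 6 arrays and whose sign turned under 2 alternatives, and it is also counted among the 18 above. The one that passed, and fell, was Slc43a1 (NM_001081349), a transporter of large neutral amino acids. It was 10.27, 10.15 and 10.12 in control livers and 8.59, 8.48 and 8.18 in soy livers, and soy minus control was -1.76 with an SE of 0.13 (adjusted p = 0.00775). Slc43a1 passed in all 17 fits made with other settings or with 1 array left out. A dimmer probe of the same transcript differed by -0.23 (adjusted p = 0.643) with overlap, so the probes disagree in size. Slc16a10 (NM_001114332), which exports aromatic amino acids, differed by -0.24 (SE 0.11, adjusted p = 0.463).

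**Figure D3:**
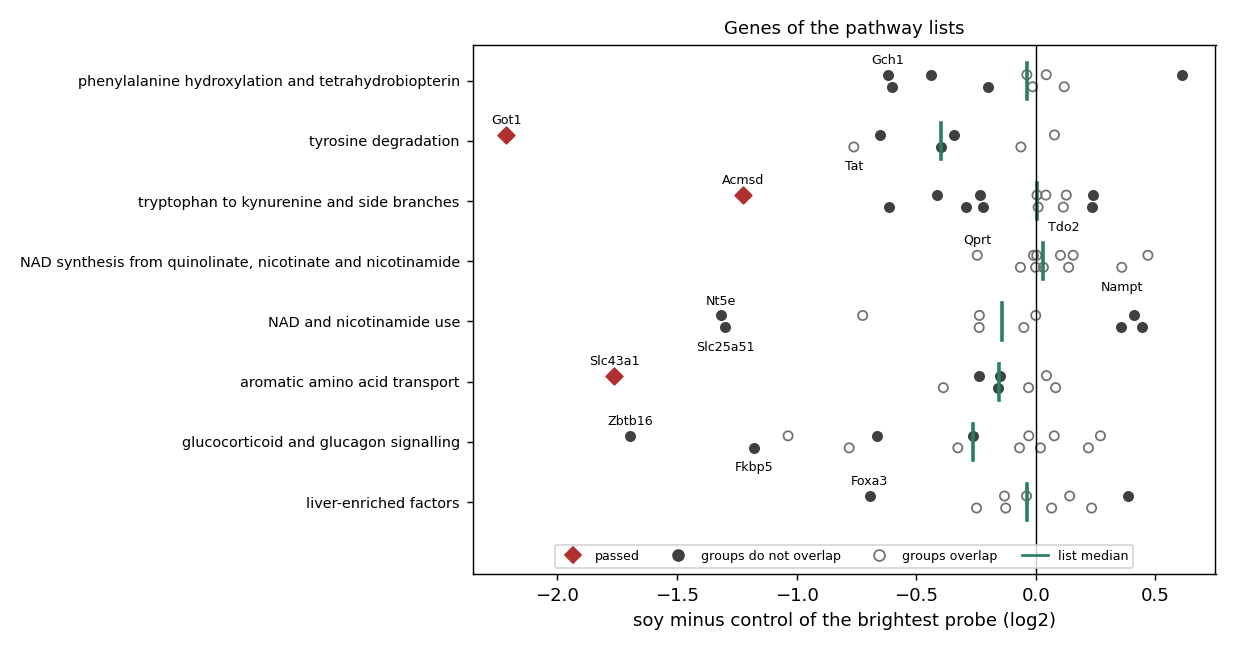
Soy minus control (log2) of the brightest probe of each gene in the 8 pathway lists; diamonds passed, filled circles have groups without overlap, open circles overlap, and the green bar is the list's median. Acmsd, Got1 and Slc43a1 passed, and the 11 genes listed under NAD synthesis lie between -0.24 and 0.47.

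Since Tat and Tdo2 answer to glucocorticoids, a joint list of genes of glucocorticoid and glucagon signalling was set beside them. Of 13 genes, 0 passed, 4 were lower and 0 higher without overlap, and the median was -0.26. Fkbp5 (NM_010220), a cochaperone of the glucocorticoid receptor and one of its targets, was 14.06, 13.13 and 13.07 in control livers and 12.52, 12.03 and 12.18 in soy livers, and soy minus control was -1.18 with an SE of 0.27 (adjusted p = 0.146). Zbtb16 (NM_001033324), another target, was 13.04, 12.94 and 11.67 against 11.38, 10.33 and 10.85, and soy minus control was -1.70 with an SE of 0.40 (adjusted p = 0.153). In both, every soy array lay below every control array.

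Control 3 carried low values for several of these genes, as it did for Tat and Tdo2. Tsc22d3 (NM_001077364) was 15.15 and 14.54 on the first 2 control arrays and 13.19 on control 3, inside the soy values of 13.71, 13.14 and 13.69. Per1 (NM_011065) was 13.16 and 12.63 against 11.57, with 12.09, 10.83 and 11.33 in soy livers. Tsc22d3 differed by -0.78 (adjusted p = 0.568) and Per1 by -1.04 (adjusted p = 0.431), neither separating the groups. Not all glucocorticoid targets of the list lay lower: Sgk1 (NM_011361), a kinase, was 11.63, 11.16 and 10.85 in control livers and 11.54, 11.08 and 11.68 in soy livers, a difference of 0.22 with overlap (SE 0.23, adjusted p = 0.762). Tsc22d3, Per1 and Sgk1 were chosen after their values were seen. The transcript of the receptor itself, Nr3c1, differed by -0.068 (adjusted p = 0.892). What part glucocorticoids had in the values of Tat was not tested.

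**Figure D4:**
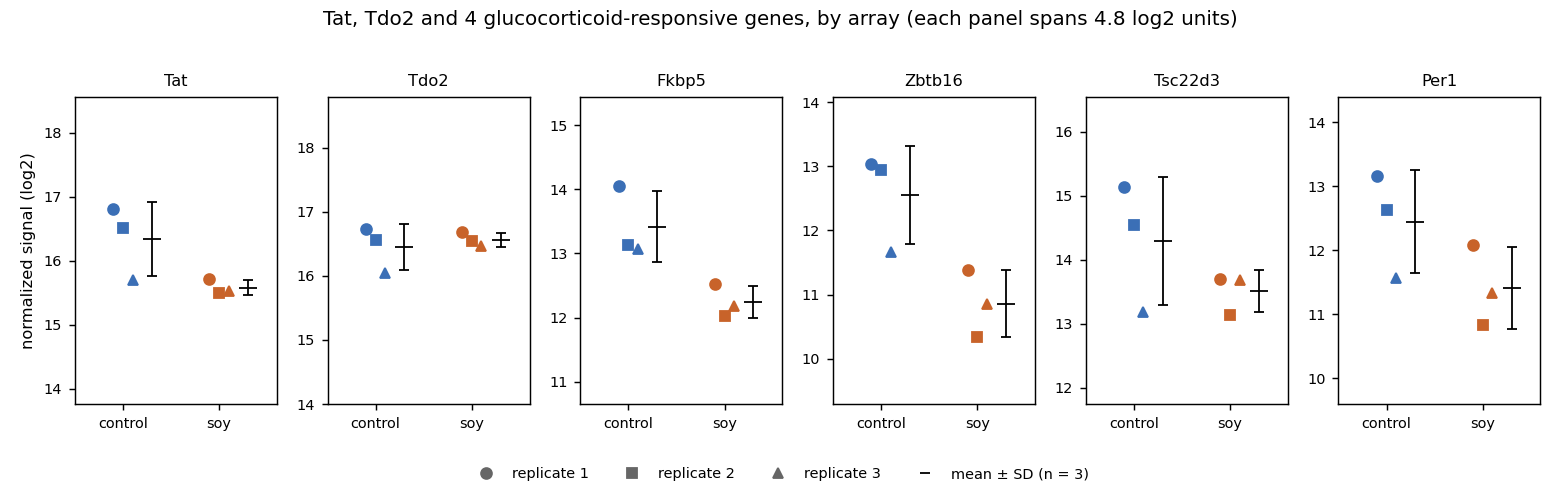
Normalized signal (log2) of Tat, Tdo2 and 4 glucocorticoid-responsive genes on each array, with marker shape for the replicate and a bar for mean ± SD (n = 3); every panel spans the same range. Control replicate 3 (blue triangle) is the lowest control in each panel, and Tdo2 is the one gene whose soy mean is above its control mean, a sign that turns without control replicate 3.

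Of the factors that keep liver genes on, 0 of 9 passed, 1 was lower and 1 higher without overlap, and the median was -0.039. Foxa3 (NM_008260) differed by -0.69 (SE 0.14, adjusted p = 0.106) and Nr1h4 (NM_001163504), the bile acid receptor FXR, by 0.39 (SE 0.12, adjusted p = 0.262). Hnf4a differed by -0.25 (adjusted p = 0.499).

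The label liver was checked on hepatocyte markers, of which 5 of 6 were on the array and well above background on all 6 arrays. Alb was 18.99, 18.99 and 19.02 in control livers and 18.99, 18.93 and 18.66 in soy livers, a difference of -0.14 (adjusted p = 0.692). Apoa1 differed by -0.070 (adjusted p = 0.858), Ttr by 0.059 (adjusted p = 0.886) and Serpina1a by -0.0043 (adjusted p = 0.992). Quantile normalization gives the brightest probes of every array the same few values. The small changes of Alb and Serpina1a are therefore partly set by the method and do not measure stability. Cps1 differed by -0.47 (adjusted p = 0.178), without overlap. A dimmer probe of Ttr differed by -0.39 (adjusted p = 0.287), also without overlap. Fewer cells of a type and less RNA per cell cannot be told apart in whole liver.

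Markers of other cells were examined as well, since Kmo and Kynu are also used by macrophages. Of 6 Kupffer cell markers 0 passed and 0 had groups without overlap (median 0.24), and the most abundant, Cd5l, differed by 0.45 (adjusted p = 0.538). No marker passed in the lists of endothelial cells (6 genes, median 0.067, most abundant gene Clec4g at 0.20), stellate cells (6 genes, median -0.12, Dcn at -0.083), cholangiocytes (5 genes, median 0.12, Spp1 at 0.15) or red cells and neutrophils (5 genes, median 0.42, Hba-a1 at 0.26). The kidney tubule list (4 genes, median -0.032, Slc34a1 at -0.18) and the adipocyte list (4 genes, median -0.075, Lep at -0.21) also had 0 that passed, and 2 genes of each, among them Umod and Adipoq, stayed below the background limit on all 6 arrays. Umod and Adipoq were chosen after their values were seen.

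Of the lymphocyte markers, the B cell gene Ms4a1 rose (0.93, adjusted p = 0.0394), whereas Cd79a, which also defines B cells, was well above background on 2 control and 0 soy arrays. The most abundant lymphocyte marker, the T cell gene Cd3e, differed by -0.11 (adjusted p = 0.797). All 4 pancreas markers lay lower in soy (median -0.54) and 0 passed, with Prss2, Cpa1 and Pnlip each well above background on 2 control and 0 soy arrays. Their summed signal was 28764, 44739 and 36883 in control and 20751, 26389 and 18926 in soy livers, nearly all of it Cela1 (-0.73, adjusted p = 0.191). The part of these cells in the values of the 9 genes was not tested.

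The genes whose signal followed Acmsd most closely over the 6 arrays were Pde4b, Usf2, Cdca4, Arl3 and Tmem183a, by Pearson's r (0.994 to 0.985) among 13497 genes well above background on all arrays. All points share the division into 2 diets, so a gene that is lower in soy tends to have a high r. Pde4b (NM_019840), a cyclic AMP phosphodiesterase, fell as well, from 8.52, 9.06 and 8.83 to 7.54, 7.83 and 7.74, a change of -1.10 (adjusted p = 0.0436). The other 4 differed by -0.56 to -0.18 and did not pass.

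**Figure D5:**
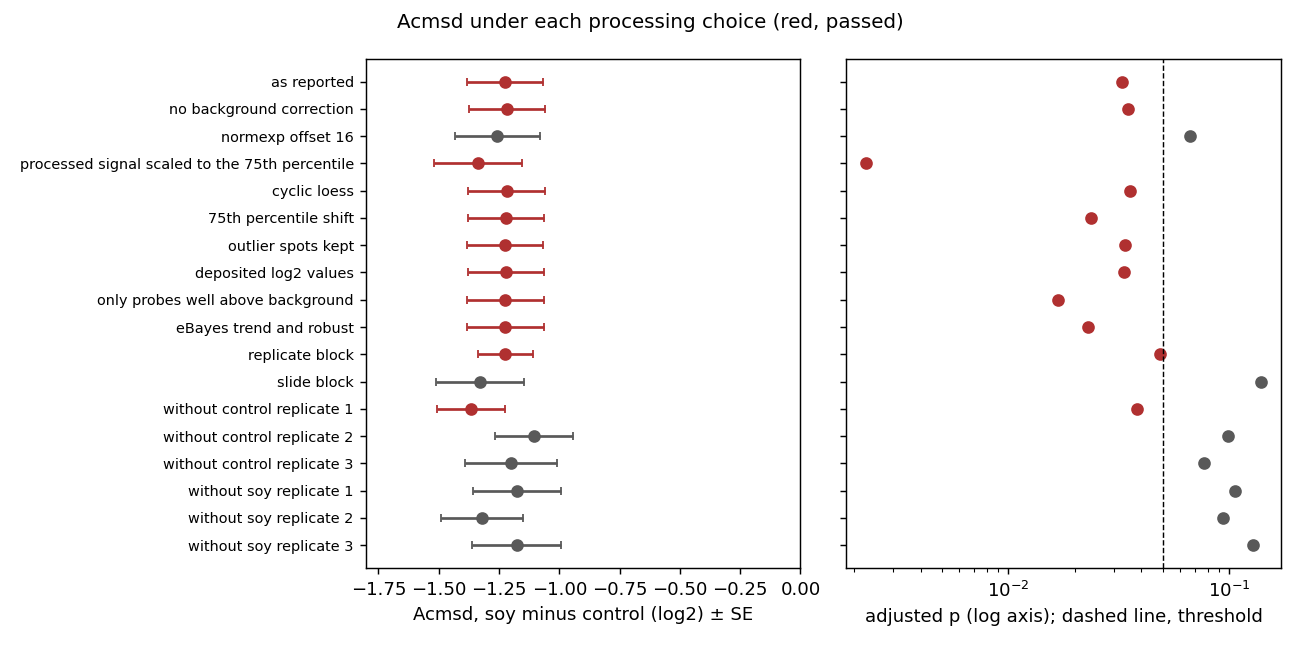
Acmsd under the reported setting and 17 alternatives: soy minus control (log2) with its SE on the left and the adjusted p on a log axis on the right, red where it passed. The change stays between -1.37 and -1.10, while the adjusted p lies on either side of 0.05.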

How the data were processed

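Liver RNA of 3 control and 3 soy mice was hybridized to 1 Agilent array per mouse. The authors deposited, per the file headers, Feature Extraction 11.5.1.1 output with uncorrected, unscaled median intensities of spots and surroundings, and a processed signal (an intensity after background and trend subtraction). A second deposited table holds log2 values whose distributions match between arrays, by a method not given in the sources used here. On single spots they differed from the values computed here by at most 0.071.

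Following the methods, the median signals were used. They were corrected by normexp (offset 50), control spots were removed, arrays were quantile normalized and log2 transformed, outlier spots were dropped, and replicate spots were averaged by probe. All 56605 probes were tested with limma 3.58.1 in R 4.3.3 and adjusted by the Benjamini-Hochberg method. Probes were called where the adjusted p was under 0.05 and the fold change over 1.5 or below 0.66, and genes where at least 1 probe was. Symbols came from RefSeq accessions (GRCm38.p6) for 58.3% of probes. The headers name build mm9, so no probe positions are given. The number of arrays limits the precision. A p-value weighs a change against the spread between arrays of a group, moderated by limma over all probes. Slide is not a term of the reported fit, so this spread mixes mice and slides. Arrays lie on 3 slides (control 1, control 2 and soy 1; soy 2; control 3 and soy 3), scanned 1 slide at a time.

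Genes with several probes are given by the brightest. The text names all 9 genes and each pathway gene that passed. It names up to 2 further genes per pathway list, those with the largest change without overlap. Hepatocyte markers, the most abundant marker of each other cell type, and the 5 genes closest to Acmsd are also named. Qprt and Nampt were chosen for their place in the route, and any others after their values were seen. The members and lists were chosen with earlier results of these data known. Alternatives were other background corrections, signals and normalizations, filters, eBayes settings, a replicate or slide block, the deposited values, the mean of a gene's probes, calls by adjusted p without the fold limit, and the removal of each array in turn. Some genes and sequences are not reported here. The fit was tested on simulated data, and the outcome is not reported here. Python 3.11.15, pandas 2.3.3 and matplotlib 3.10.9 were used.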

Additional observations from a re-analysis of the deposited data

How the results depend on the processing

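Of the 9 genes, 1 passed in the reported fit, and the count was 0 with a normexp offset of 16 and with slide as a block, and 0 to 1 with 1 array left out; the same counts hold for the 11 probes. In all 17 other fits Acmsd kept its sign (-1.37 to -1.10), and it passed in 10. Without control replicate 3 the gene that passed was Tat, not Acmsd. Of 209 alternative values over the 11 probes 1 changed sign, that of Tdo2 without control replicate 3, and with 1 array left out Tdo2 lay between -0.086 and 0.26. Of the pathway genes 3 passed, 10 with the processed signal (each array scaled at its 75th percentile), and 1 to 3 with 1 array left out. Slc6a19, below background throughout, changed sign with that signal (1.15) and with a 75th-percentile shift (0.0090), which moved the median of all probes to 0.13, as that signal did. Of all probes 198 passed (118 higher and 80 lower in soy), 77 with offset 16, 13138 with the processed signal (11924 higher and 1214 lower), 299 with the 75th-percentile shift, 497 with dim probes left out, 25 with slide as a block, and 25 to 203 with 1 array left out. The labels do not say whether the replicate numbers pair the mice. Deviations from the group means correlated at 0.12, -0.061 and 0.097 between same-numbered arrays. With 3 arrays per group these values cannot settle it, and the arrays numbered 1, like those numbered 3, also share a slide. With a replicate block 78 probes passed in all and Acmsd still passed (adjusted p = 0.0487, limma). The cause of these differences was not tested.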
